A study of Mus musculus with 8 samples.

Results

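The chemokine ligand family was examined in mouse liver as all probes of the deposited table whose gene symbol is Ccl, Cxcl or Xcl followed by a number and at most 1 letter, or is Cx3cl1 or Pf4. This rule found 52 of 56605 probes, for 37 of 26894 genes, and uses no measured value. The members were still chosen with earlier results of these data known. Liver RNA came from female NFS/sld mice, a strain with a mutation that arrests salivary gland development; neonatal thymectomy of these mice models primary Sjögren's syndrome, in which the immune system attacks tear and saliva glands. In the Tx group the thymus was removed on day 3 after birth, and the liver was taken 8 weeks after that surgery. The nonTx group held mice of the same sex and strain that kept their thymus, and the labels state neither their age nor a sham operation. Each group had 4 one-colour Agilent arrays, and the labels do not say whether each array stands for 1 animal. The p-values therefore describe only how these arrays scatter, which may be technical.

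Chemokines are small secreted proteins that guide leukocytes by binding G protein-coupled receptors on them, and they are named CC, CXC, C or CX3C after the spacing of their first cysteines. Inflammatory members are made on demand, largely under NF-kB and interferon signals, while homeostatic members such as Cxcl12 are made constantly and set where lymphocytes reside. In the liver they come from hepatocytes, Kupffer cells (the resident macrophages), endothelium, stellate cells and blood cells, and they place T cells, NK cells and monocytes along the sinusoids.

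Signals are given as scaled signal: the background-subtracted intensity of the scanner file in arbitrary units, multiplied so that every array has the same 75th percentile. Differences are Tx minus nonTx on the log2 scale, with standard errors (SE) and p-values from limma fitted over all 30955 tested probes and adjusted over all of them by Benjamini-Hochberg. A probe was tested where the scanner software marked it well above background on at least 3 of the 4 arrays of a group. Before scaling, the 75th percentile of the signal lay between 273.6 and 301.8 on the nonTx arrays and between 224.8 and 330 on the Tx arrays, each array had 51.1% to 57.12% of its probes well above background, and arrays correlated pairwise at 0.977 to 0.994. All arrays sat on 1 slide with nonTx in slide row 1 and Tx in slide row 2, so slide row and group cannot be told apart. All of the 7 hepatocyte markers examined were well above background on all 8 arrays, which fits the labelled tissue. The number of arrays limits the precision.

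Across the family, most measured ligands lay slightly higher in the liver of thymectomized mice, and no ligand passed the test. Of the 52 probes, 31 were well above background on all 8 arrays, 10 on some arrays and 11 on none. The filter passed 35 probes for 26 genes. The adjusted p was under 0.05 for 0 of these 35 probes by limma, as for 0% of all tested probes, and the smallest in the family was 0.295. At an unadjusted p under 0.05, limma gave 7 family probes higher in Tx (20%), against 7.17% of all tested probes, and 0 lower, against 6.03%. The difference was above 0 for 28 of the 35 probes (80%), against 52.6% of all tested probes. These counts hold Ccl3, which passed the filter only through Tx, where it was high, and Ccl12, which passed only through nonTx. Of the 33 probes that passed in both groups, 6 were higher at an unadjusted p under 0.05 (18.2%, against 7.58% of the 28666 probes that passed in both groups), 0 were lower at that level (against 5.22%) and 26 had a difference above 0 (78.8%, against 55.5%).

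The median difference of the tested ligand probes was 0.15, in a range from -0.39 (Ccl8) to 0.90 (Ccl3), and the median of all tested probes was 0.02. With 1 probe per gene, the brightest, 21 of 26 ligand genes were higher with a median of 0.17, against 56.3% of 16495 genes with a median of 0.03. The 10 spike-in RNAs, which were added to the samples in fixed amounts, were higher in Tx by 0.06 to 0.37 after the same scaling, with a median of 0.26, which exceeds the family median; the part of this shift in the family values was not tested. Single ligands varied more between replicates than the typical probe. The median standard deviation of the log2 signal was 0.29 for family probes and 0.16 for all tested probes on the nonTx arrays, and 0.33 and 0.23 on the Tx arrays.

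The number of ligand probes at an unadjusted p under 0.05 by limma, all higher in Tx, depended on single arrays. It was 2 without nonTx replicate 3, where 5.58% of all tested probes were higher at that level, a share near that of 2 in 35. It was 4 without nonTx replicate 1, nonTx replicate 2 or Tx replicate 3 (5.21%, 5.14% and 5.23% of all tested probes). Without each of the others it was 5 or 6, against 4.42% to 12.3% of all tested probes. The first nonTx array held the lowest value for 11 of the 26 ligand genes, and the highest values were spread over Tx replicate 2 (7 genes), Tx replicate 4 (6), Tx replicate 3 (5) and nonTx replicate 4 (5). RNA was taken from whole tissue, in which more cells of a type and more RNA per cell cannot be told apart.

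**Figure D1:**
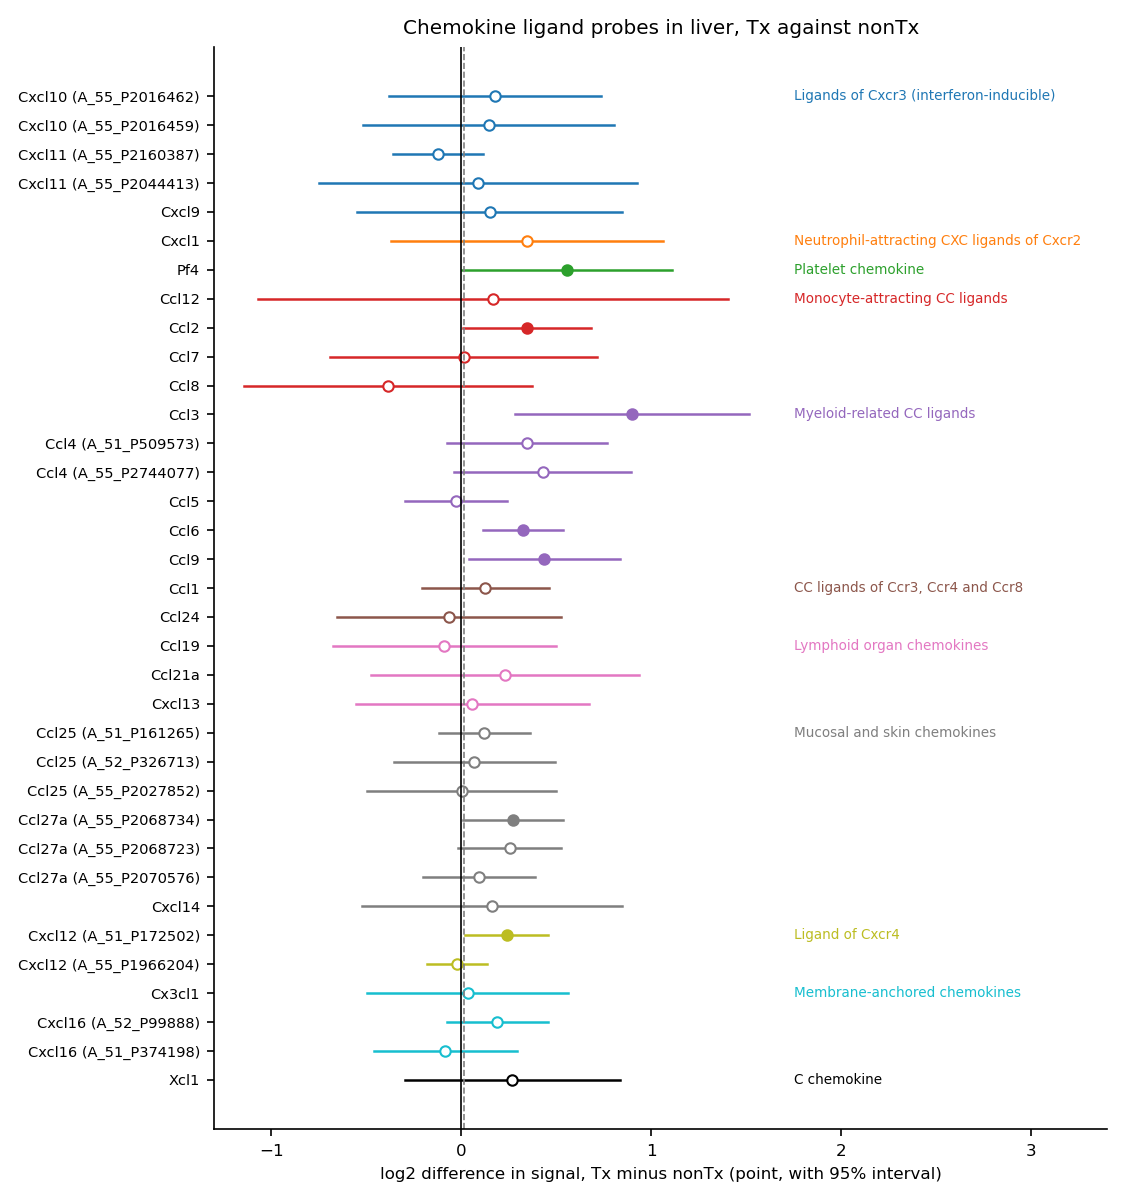
Log2 difference in signal, Tx minus nonTx, of each of the 35 tested chemokine ligand probes (points) with its 95% interval from limma (lines), grouped by role. Filled points have an unadjusted p under 0.05 and the dashed line marks the median of all tested probes, 0.02; all 7 filled points lie to the right of it, and most intervals include 0.

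A group of inflammatory CC ligands that draw monocytes, macrophages and T cells (Ccl3, Ccl4, Ccl5, Ccl6 and Ccl9) held the ligands with the smallest p. Of the 5 genes of this group, 4 were higher in Tx and 3 had an unadjusted p under 0.05 by limma, with a median difference of 0.35. Of all tested genes, 8.66% were higher at that level. One of the 3 is Ccl3, which passed the filter only through Tx. Among the 4 genes that passed in both groups, 3 were higher, 2 of them (Ccl6 and Ccl9) at an unadjusted p under 0.05. Ccl6 is a CC chemokine of rodents made by myeloid cells. The scaled signal of its probe (A_51_P460954) was 1602, 1612, 1791 and 2030 on nonTx arrays 1 to 4 and 2092, 2195, 2172 and 2307 on Tx arrays 1 to 4. Each Tx array lay above each nonTx array, which held for no other ligand probe (1 of 35, 2.86%, against 4.47% of all tested probes) and gave means of 1759 ± 201 and 2192 ± 88.8 (SD, n = 4 arrays each). The difference was 0.32 (SE 0.09), a 1.25-fold higher signal, with a limma adjusted p = 0.295. Without scaling the groups overlapped, since the lowest Tx signal was 1836.8 and the highest nonTx signal 2043.8.

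Ccl9, another rodent CC chemokine that binds Ccr1, gave 7277, 8175, 6740 and 10418 on the nonTx arrays and 7983, 10747, 11932 and 13660 on the Tx arrays (A_51_P185660). The first Tx array lay within the nonTx range and the fourth nonTx array within the Tx range. The difference was 0.44 (SE 0.18; limma adjusted p = 0.358), or 1.35-fold, and it was 0.33 without Tx replicate 4 and 0.58 without Tx replicate 1.

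Ccl3 and Ccl4, the macrophage inflammatory proteins 1 alpha and 1 beta, are released by activated macrophages, NK cells and T cells. The Ccl3 probe (A_51_P140710) gave 13.9, 8.64, 10.5 and 8.78 on the nonTx arrays, none of which was well above background, and 18.1, 22.9, 23.9 and 13.5 on the Tx arrays, of which 3 were. It passed the filter only through the Tx group, so its fitted difference of 0.90 (SE 0.28, limma adjusted p = 0.304) rests on signals near background. A floored fold took, per nonTx array, the higher of the probe's own value and the lowest signal well above background. Against these values the Tx mean was 1.51-fold higher. This fold is not a lower limit. It leaves out the scatter of the arrays, and Tx array 4 was itself not well above background. Ccl4 was measured by 2 probes, and both lay higher on Tx arrays 1 to 3 than on any nonTx array, with Tx array 4 inside the nonTx range. The brighter one (A_51_P509573) gave 40.6, 51.6, 50.8 and 51.0 on the nonTx arrays and 63.0, 75.2, 69.1 and 43.3 on the Tx arrays. The differences of the 2 probes were 0.35 (SE 0.19; limma adjusted p = 0.437) and 0.43 (SE 0.21; limma adjusted p = 0.4).

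Ccl5, also called RANTES and made largely by T cells, NK cells and platelets, was the member of this group that was not higher. Its probe (A_52_P638459) gave 984, 1200, 1005 and 1393 on the nonTx arrays and 1135, 1067, 1046 and 1202 on the Tx arrays, which all lay inside the nonTx range. The difference was -0.03, with a 95% interval from -0.30 to 0.24.

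The upstream sequences of the neighbouring genes Ccl6 and Ccl9, which lie on the same strand of chromosome 11 and both gave higher signals in Tx, are shown because only one of them holds a searched motif. They are the 250 bases before the gene start, from RefSeq on GRCm38.p6, in the 5′ to 3′ direction of the gene; capitals mark a match to an NF-kB pattern (GGG, any 2 bases, TT, any base, CC) on either strand.
Ccl6, chr11:83593088-83593337, minus strand: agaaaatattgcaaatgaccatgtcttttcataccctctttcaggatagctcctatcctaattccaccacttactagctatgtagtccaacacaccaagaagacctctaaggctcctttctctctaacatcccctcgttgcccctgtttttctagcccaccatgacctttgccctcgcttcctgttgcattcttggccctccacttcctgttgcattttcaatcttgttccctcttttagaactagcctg
Ccl9, chr11:83578637-83578886, minus strand: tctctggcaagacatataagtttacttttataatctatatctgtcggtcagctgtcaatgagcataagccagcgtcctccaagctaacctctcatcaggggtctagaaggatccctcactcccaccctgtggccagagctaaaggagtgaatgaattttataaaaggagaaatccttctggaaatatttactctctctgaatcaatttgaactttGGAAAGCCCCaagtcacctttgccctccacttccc
In Ccl9 the match, on the opposite strand of the window, spans bases 35 to 26 before the start. In the Ccl6 window there is no match to these letters, nor to the interferon-related letters given below for Cxcl9 and Cxcl10.

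The monocyte-attracting ligands of Ccr2 differed among themselves in size and direction. Ccl2, the monocyte chemoattractant protein 1 that recruits Ccr2-bearing monocytes, gave 235, 379, 284 and 325 on the nonTx arrays and 376, 417, 417 and 329 on the Tx arrays (A_51_P286737). The groups overlapped through nonTx array 2 and Tx array 4, and the difference was 0.35 (SE 0.15; limma adjusted p = 0.368). It was 0.23 without nonTx replicate 1, which held the lowest value. Ccl8, another monocyte chemoattractant protein, had the most negative difference of the tested family probes at -0.39 (SE 0.34), with signals from 43.6 to 123.6 in nonTx and from 40.9 to 99.6 in Tx. The size of this difference rested on single arrays, as it was -0.14 without nonTx replicate 4, -0.22 without Tx replicate 3, and -0.65 without nonTx replicate 1 or Tx replicate 2. Ccl7 differed by 0.01 (SE 0.32). Ccl12 was well above background on 3 nonTx arrays and 1 Tx array, so it passed only through nonTx, and differed by 0.17 (SE 0.56). Ccr2, their receptor, differed by -0.24 (SE 0.17).

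Markers of blood-borne myeloid cells lay higher beside these ligands. Of 8 neutrophil and monocyte markers, 7 were higher in Tx, against 56.3% of all tested genes, with a median difference of 0.33. By limma, 3 were higher at an unadjusted p under 0.05 (8.66% of all tested genes). Another, Itgam, was lower at that level (5.25% of all tested genes). Retnlg, S100a9 and S100a8, which are abundant in neutrophils, differed by 0.90, 0.66 and 0.56. The summed scaled signal of this list ran from 17325 to 25623 in nonTx and from 17304 to 30047 in Tx. Itgam, the CD11b integrin of the same cells, went the other way at -1.52, with 6674 on Tx array 2 and 753 to 3403 on the other Tx arrays, against 5927 to 7363 in nonTx. The 8 Kupffer cell markers had a median difference of 0.04, a summed signal of 38668 to 49526 in nonTx and 36399 to 54820 in Tx, and no unadjusted p under 0.05. All of these markers were well above background on at least 3 arrays of each group. Their part in the ligand values was not tested.

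**Figure D2:**
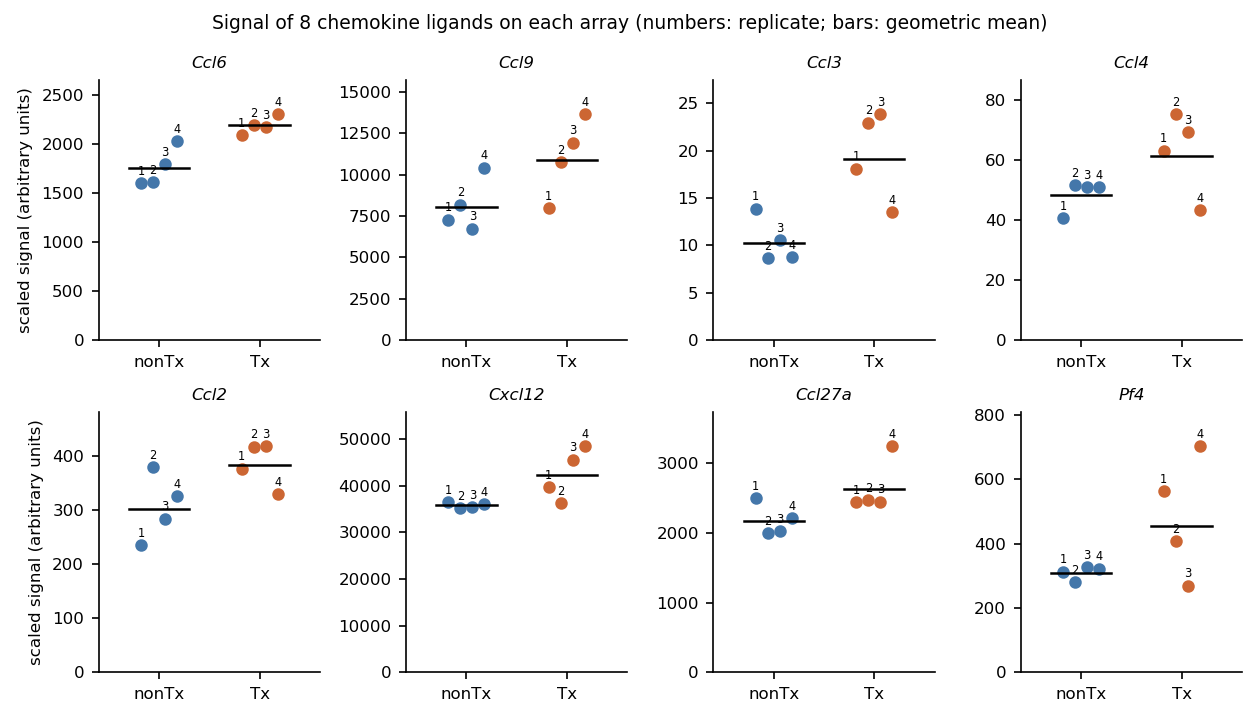
Scaled signal in arbitrary units of 8 chemokine ligands on each array, with nonTx in blue, Tx in orange, the replicate number beside each point and bars at the geometric mean of each group; all axes start at 0. Ccl6 alone has groups that do not overlap, while Pf4 is high on Tx arrays 1 and 4 and below the nonTx range on Tx array 3.

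Pf4, platelet factor 4 or Cxcl4, is stored in the alpha granules of platelets and made by megakaryocytes. Its probe (A_51_P441426) gave 313, 280, 326 and 322 on the nonTx arrays, a tight group with a mean of 310.3 ± 20.7 (SD, n = 4), and 562, 407, 269 and 702 on the Tx arrays, with a mean of 485 ± 188. Tx arrays 1, 2 and 4 lay above every nonTx array and Tx array 3 lay below all of them. The difference was 0.56 (SE 0.25; limma adjusted p = 0.376), 0.35 without Tx replicate 4 and 0.81 without Tx replicate 3. Ppbp, which encodes the platelet basic protein (Cxcl7) and falls outside the symbol rule, gave 423, 268, 108 and 445 on the Tx arrays and 178 to 239 on the nonTx arrays, with the same arrays high and low as for Pf4. Treml1, a receptor of platelet granules, gave 30.0, 21.5, 24.6 and 41.2 on the Tx arrays and 18.8 to 21.0 on the nonTx arrays, so that Tx array 3 was not low for this gene. Itga2b, the platelet integrin subunit, was well above background on 1 Tx array and 3 nonTx arrays and ran from 12.1 to 16.9 in Tx and from 14.3 to 18.9 in nonTx. Of the 4 measured platelet markers, 3 were higher, with a median of 0.36; the list's summed signal was 234.5 to 298.6 in nonTx and 158.6 to 536.2 in Tx, and Gp1ba and Gp5 did not pass the filter. The part of platelet RNA in the Pf4 values was not tested.

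**Figure D3:**
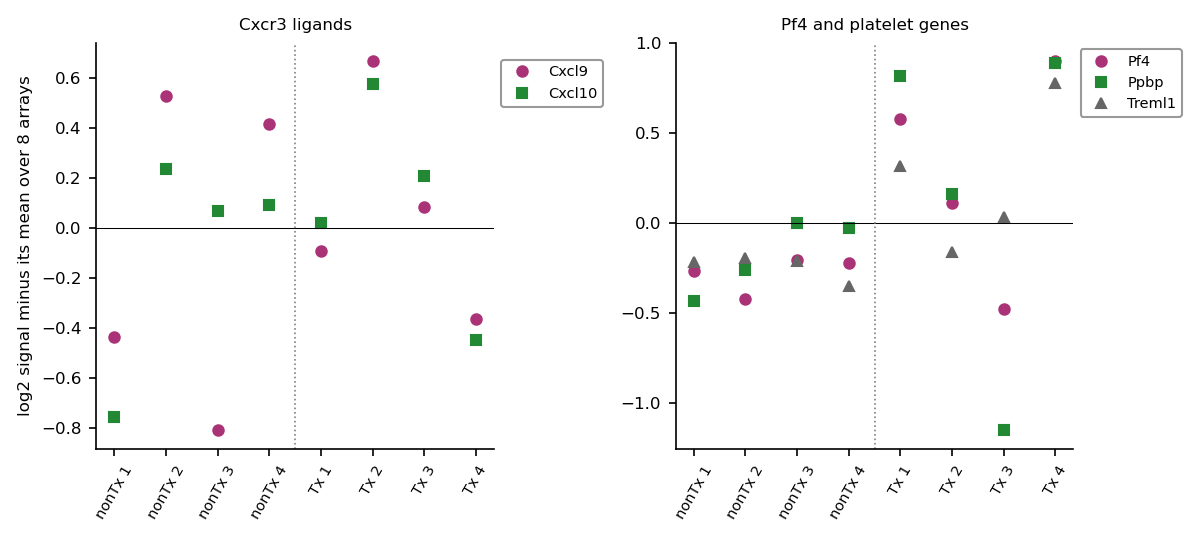
Log2 signal minus the gene's mean over the 8 arrays, for Cxcl9 and Cxcl10 (left) and for Pf4, Ppbp and Treml1 (right), with the nonTx arrays left of the dotted line. Pf4 and Ppbp are both high on Tx arrays 1 and 4 and low on Tx array 3; Cxcl9 and Cxcl10 are both highest on Tx array 2.

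Cxcl12, the homeostatic ligand of Cxcr4 that retains haematopoietic cells and is made by stromal and endothelial cells, was measured by 2 probes for different transcripts. The brighter probe (A_51_P172502) gave 36434, 35216, 35489 and 36113 on the nonTx arrays, which lay within a narrow band, and 39703, 36244, 45604 and 48489 on the Tx arrays. Tx arrays 1, 3 and 4 exceeded every nonTx array and Tx array 2 fell among them. This probe differed by 0.24 (SE 0.10; limma adjusted p = 0.358). The other probe (A_55_P1966204) gave 2342 to 2486 in nonTx and 2287 to 2491 in Tx, with a difference of -0.02 (SE 0.07) and a 95% interval from -0.18 to 0.14. The probes therefore gave different signs. Cxcr4 did not pass the filter.

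The ligands of Cxcr3, which are induced by interferon gamma and draw activated T cells and NK cells, did not separate the groups. Cxcl9 gave 1305, 2549, 1007 and 2359 on the nonTx arrays and 1657, 2806, 1874 and 1372 on the Tx arrays (A_51_P461665), with a difference of 0.15 (SE 0.31). Its nonTx values fell into a low pair and a high pair, and 3 of the 4 Tx values lay between them. Cxcl10, by its brighter probe (A_55_P2016462), gave 658, 1310, 1166 and 1185 on the nonTx arrays and 1128, 1659, 1286 and 814 on the Tx arrays, with a difference of 0.18 (SE 0.25); its dimmer probe differed by 0.14 (SE 0.30). Both ligands were highest on Tx array 2.

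Cxcl11, the third ligand of Cxcr3, had 2 probes with opposite signs. One (A_55_P2160387) gave 77622, 71010, 71910 and 87270 on the nonTx arrays and 60433, 70140, 73769 and 78999 on the Tx arrays, a difference of -0.12 (SE 0.11). For the other (A_55_P2044413) the signals ran from 1272 to 2573 in nonTx and from 830 to 2666 in Tx, a difference of 0.09 (SE 0.38). Tx array 3 was the lowest of its group on the second probe and not on the first, so the level of Cxcl11 is uncertain.

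The correlation of Cxcl9 with Cxcl10 was positive over the arrays, which are only 8 points. Pearson's r was 0.66 (two-sided exact permutation p = 0.0751, adjusted p = 0.296 over 5 pairs) and Spearman's rho 0.83 (exact permutation p = 0.0154, adjusted p = 0.0769). Without the arrays farthest from the median of Cxcl9, nonTx replicate 3 and Tx replicate 2, r was 0.86 (exact permutation p = 0.0333, adjusted p = 0.0833). As deviations from the group means r was 0.65 (exact permutation p = 0.106, adjusted p = 0.184). No version passed the adjusted threshold.

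The upstream windows of Cxcl9 and Cxcl10, neighbours on chromosome 5, are shown because these ligands shared their highest array and are textbook targets of NF-kB and interferon signalling. Capitals mark matches to the NF-kB pattern given above, to the interferon-stimulated response element (ISRE; TTTC, any 2 bases, TTTC) or to the gamma-activated sequence (GAS; TTCNNNGAA), searched on both strands in the 250 bases before the gene start; no printed matches overlap.
Cxcl9, chr5:92328080-92328329, minus strand: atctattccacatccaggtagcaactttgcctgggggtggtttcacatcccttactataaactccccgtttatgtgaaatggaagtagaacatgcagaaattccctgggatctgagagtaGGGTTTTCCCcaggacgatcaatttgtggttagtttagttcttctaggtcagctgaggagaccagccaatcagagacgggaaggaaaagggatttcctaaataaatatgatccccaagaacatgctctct
Cxcl10, chr5:92348890-92349139, minus strand: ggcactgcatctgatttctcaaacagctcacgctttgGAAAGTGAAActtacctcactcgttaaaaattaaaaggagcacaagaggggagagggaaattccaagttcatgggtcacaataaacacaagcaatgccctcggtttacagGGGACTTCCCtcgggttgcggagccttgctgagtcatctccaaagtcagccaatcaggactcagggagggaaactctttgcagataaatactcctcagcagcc
Cxcl9 holds an NF-kB match at bases 130 to 121 before the start. Cxcl10 holds an NF-kB match at bases 103 to 94 and an ISRE match, on the opposite strand of the window, at bases 213 to 204. RefSeq promoters on GRCm38.p6 were found for 26 of the 37 family genes, 29 windows in all. The NF-kB letters were in 8 of the 29 (27.6%), those of Ccl9, Ccl19, Ccl20, Cxcl1, Cxcl2, Cxcl3, Cxcl9 and Cxcl10, against 4.11% of 32851 windows of all genes. The ISRE letters were in 3 (10.3%, against 2.98%), those of Ccl19, Cxcl10 and Cxcl14. The GAS letters were in 2 (6.9%, against 7.02%), those of Ccl17 and Cxcl14. Of the 8 genes with NF-kB letters, Cxcl2, Cxcl3 and Ccl20 were not tested on the arrays, and the other 5 differed by 0.44 (Ccl9), 0.35 (Cxcl1), 0.18 (Cxcl10), 0.15 (Cxcl9) and -0.09 (Ccl19). A match describes letters in a window and is not a measured binding site.

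Of the ELR-type CXC ligands, which draw neutrophils through Cxcr2, only Cxcl1 passed the filter. It gave 936, 557, 1023 and 2021 on the nonTx arrays and 1506, 1003, 1287 and 1451 on the Tx arrays (A_55_P2811679). All Tx values lay inside the nonTx range, and the difference of 0.35 (SE 0.32) was 0.68 at most and 0.06 at least when single arrays were left out. Cxcl2 and Cxcl5 were each well above background on 1 Tx array, and Cxcl3 and Cxcl15 on none. Cxcr2 and Cxcr1 did not pass the filter.

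The lymphoid organ chemokines guide naive lymphocytes and B cells. Ccl19, a ligand of Ccr7, gave 113, 190, 145 and 225 on the nonTx arrays and 163, 237, 121 and 118 on the Tx arrays (A_55_P2099742), with full overlap and a difference of -0.09 (SE 0.26). Ccl21a, the other Ccr7 ligand, differed by 0.23 (SE 0.32), and it was high on Tx array 3 alone, at 126 against 38.7 to 66.4 on the other 7 arrays; without that array the difference had the other sign, -0.11. Its copies in the mouse genome are nearly identical, so its probe cannot be assigned to 1 copy. Cxcl13, which draws B cells to follicles through Cxcr5, ran from 83.8 to 204 in nonTx and from 92.9 to 138 in Tx and differed by 0.06 (SE 0.28).

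Among the mucosal and skin chemokines, Ccl27a, a ligand of Ccr10 known from keratinocytes, gave 2493, 1995, 2022 and 2210 on the nonTx arrays and 2437, 2462, 2445 and 3237 on the Tx arrays by its brightest probe (A_55_P2068734). Tx array 4 stood above the rest, and nonTx array 1 exceeded the other 3 Tx arrays. The difference was 0.27 (SE 0.12; limma adjusted p = 0.366). The other 2 probes under this symbol differed by 0.25 (SE 0.12) and 0.09 (SE 0.13), and near-identical copies of this gene leave its identity uncertain. Ccl25, the ligand of Ccr9 that directs T cells to thymus and gut, had 3 tested probes with differences of 0.12 (SE 0.11), 0.07 (SE 0.19) and 0.00 (SE 0.22). Cxcl14, an epithelial and stromal chemokine, differed by 0.16 (SE 0.31). Ccl20, Ccl28 and Cxcl17 were well above background on no array.

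The membrane-anchored chemokines are shed by proteases and, while anchored, also hold leukocytes on cells. Cxcl16, the ligand of Cxcr6 on liver-resident lymphocytes and NKT cells, gave 223, 249, 274 and 284 on the nonTx arrays and 247, 307, 320 and 299.7 on the Tx arrays by its brighter probe (A_52_P99888), a difference of 0.19 (SE 0.12; limma adjusted p = 0.484). Tx arrays 2 to 4 lay above the nonTx range on this probe. The other probe (A_51_P374198) ran from 199 to 322 in nonTx and from 186 to 268 in Tx and differed by -0.08 (SE 0.17), so the sign for Cxcl16 depended on the probe. Cx3cl1, fractalkine, differed by 0.03 (SE 0.24).

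Ligands of Ccr3, Ccr4 and Ccr8, which draw eosinophils and T helper 2 cells, were mostly below the filter. Ccl24, or eotaxin 2, gave 1250, 1751, 1635 and 2880 on the nonTx arrays and 1240, 2533, 1618 and 1694 on the Tx arrays (A_52_P18116), with overlapping groups and a difference of -0.07 (SE 0.26). Ccl1 differed by 0.13 (SE 0.15) on its tested probe (A_55_P2157829). Its other probe (A_55_P1960386) was well above background on 1 Tx array only and was not tested, so the level of Ccl1 is uncertain. Ccl17 was well above background on 2 nonTx arrays and no Tx array, and Ccl11, Ccl22 and Ccl26 on no array. Xcl1, the C chemokine of NK cells and CD8 T cells that draws Xcr1-bearing dendritic cells, gave 33.2, 54.4, 41.3 and 56.3 on the nonTx arrays and 37.9, 78.7, 61.1 and 48.4 on the Tx arrays (A_51_P234956), a difference of 0.27 (SE 0.25).

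The receptors lay on the opposite side of 0 from the ligands. Of 18 chemokine receptors, 10 passed the filter, 8 of them lower in Tx with a median over the 10 of -0.35. By limma 3 had an unadjusted p under 0.05, all lower (5.25% of all tested genes), and 0 an adjusted p under 0.05. These 3 were Cxcr6, Cxcr3 and Ccr7, which mark liver-homing, activated and naive lymphocytes. Each was lower on every Tx array than on any nonTx array, which held for 3.4% of all tested probes.

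Cxcr6, the receptor of Cxcl16, gave 276, 290.0, 258 and 318 on the nonTx arrays and 107.1, 187, 128 and 180 on the Tx arrays. The difference was -0.96 (SE 0.18, limma adjusted p = 0.169). Over the alternative settings its limma adjusted p ran from 0.035 to 0.38. The value of 0.035 came without Tx replicate 2, a removal after which 188 of all tested probes passed, against 0 in the main fit. Cxcr3, the receptor of Cxcl9, Cxcl10 and Cxcl11, gave 99.6, 106, 90.0 and 137 on the nonTx arrays and 47.2, 65.6, 52.3 and 77.7 on the Tx arrays, a difference of -0.84 (SE 0.19; limma adjusted p = 0.247). Ccr7, the receptor of Ccl19 and Ccl21a, gave 150.4, 108, 148 and 148 on the nonTx arrays and 97.5, 77.2, 56.8 and 88.2 on the Tx arrays, a difference of -0.81 (SE 0.18; limma adjusted p = 0.249). Their ligands overlapped between the groups on every probe. Because Cxcr3 levels form 2 separate groups, the relation to its ligand Cxcl9 is given only as deviations from the group means, with r = 0.37 (exact permutation p = 0.396, adjusted p = 0.396).

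**Figure D4:**
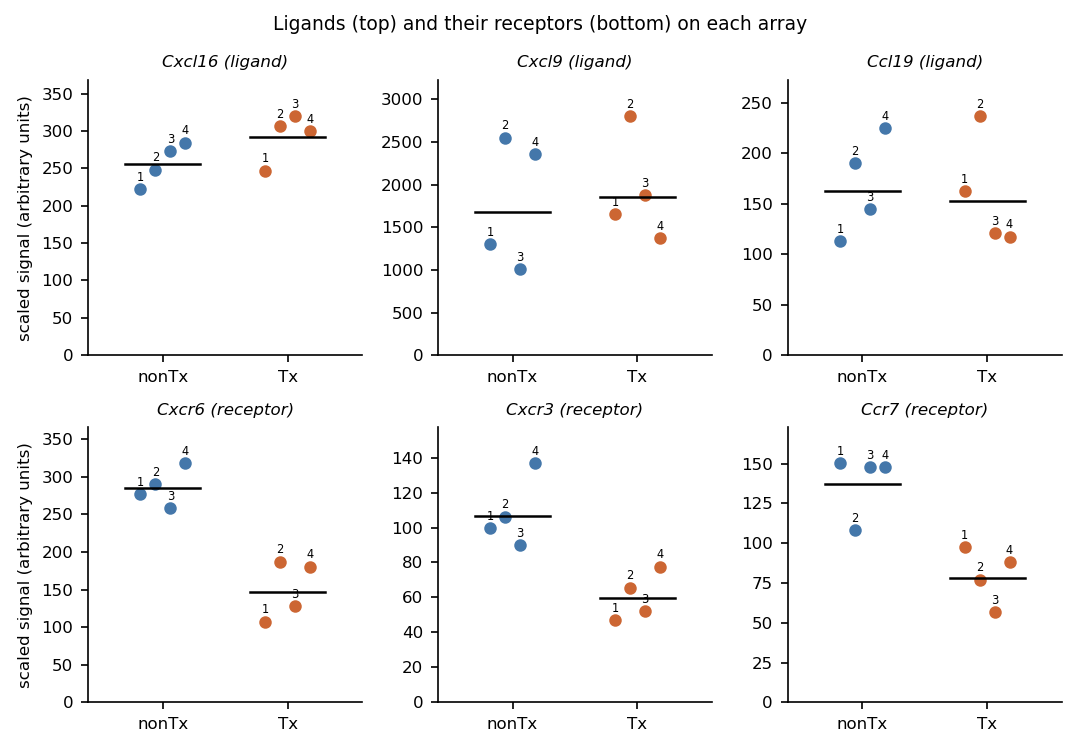
Scaled signal in arbitrary units on each array of the ligands Cxcl16, Cxcl9 and Ccl19 (top row) and of their receptors Cxcr6, Cxcr3 and Ccr7 (bottom row), with nonTx in blue, Tx in orange, replicate numbers beside the points and bars at the geometric means. All 4 Tx arrays lie below all 4 nonTx arrays for each receptor, while the groups overlap for each ligand.

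Other receptors gave smaller differences with overlapping groups. Ccr6, the receptor of Ccl20, differed by -0.54 (SE 0.34) and Ccr9 by -0.40 (SE 0.20). Cxcr5 differed by 0.29 (SE 0.42), Ccr3 by 0.04 (SE 0.16) and Cx3cr1, the fractalkine receptor, by -0.00 (SE 0.33); Ccr2 and Cx3cr1 had the other sign with normexp background correction (0.012 and 0.055). Most T cell markers lay lower beside the receptors: 7 of 10 were lower, with a median of -0.45. By limma, 5 were lower at an unadjusted p under 0.05 (5.25% of all tested genes) and 0 higher (8.66%). Cd8a and Cd8b1 passed the filter only through nonTx, and Cd8a was well above background on no Tx array. Of the 8 that passed in both groups, 5 were lower, all at that level (5.22% of probes that passed in both groups), with a median of -0.53. The other 3, Cd4, Cd247 and Cd3e, were the brightest and lay higher by 0.32, 0.34 and 0.13. The summed signal of all 10 was 7143 to 7822 in nonTx and 7330 to 11067 in Tx. Of 8 measured NK cell markers 4 were lower and 4 higher, with a median of -0.04. By limma, 2 were lower at an unadjusted p under 0.05 (Il2rb and Klrb1c, against 5.25% of all tested genes) and 0 higher (8.66%). Klrb1c and Ncr1 passed the filter only through nonTx. Among the 6 that passed in both groups, 3 were lower, 1 of them (Il2rb) at that level (5.22% of probes that passed in both groups). The summed signal of the 8 markers was 1361 to 3764 in nonTx and 1563 to 3039 in Tx. The part of T and NK cells in the receptor values was not tested.

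Ccl5, which these lymphocytes also make, was set against a marker of each over the arrays. Over the 8 arrays its r was 0.60 with Nkg7, a granule gene of NK and cytotoxic T cells (exact permutation p = 0.118, adjusted p = 0.296; rho = 0.48, exact permutation p = 0.243, adjusted p = 0.446). This relation rested on nonTx replicates 1 and 4, since r was 0.03 without them (exact permutation p = 0.944). Cd3g is a T cell receptor subunit whose groups did not overlap. As deviations from the group means its r with Ccl5 was 0.78 (exact permutation p = 0.0538, adjusted p = 0.184) and did not pass the threshold. Without the same 2 arrays, Pearson's r on values not centred by group was 0.11 (exact permutation p = 0.812, adjusted p = 0.944). That value holds the group difference of Cd3g, so it cannot be compared with 0.78.

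The atypical receptors and proteases that remove or process ligands were close to 0. All 8 genes were measured, with a median of -0.05, and none had an unadjusted p under 0.05. Among them Ackr1, the Duffy antigen that binds many CC and CXC ligands, differed by 0.18 (SE 0.14). Dpp4, the peptidase that trims Cxcl10 and Cxcl12, differed by 0.10 (SE 0.08). The proteases Adam10 and Adam17, which shed Cxcl16 and Cx3cl1, differed by -0.03 (SE 0.09) and -0.11 (SE 0.09).

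Of 12 genes that signal below chemokine receptors, 11 were measured, 6 of them higher and 5 lower, with a median difference of 0.00. By limma, 3 had an unadjusted p under 0.05, all lower (5.25% of all tested genes). Rgs1, a brake on G protein signalling in lymphocytes, gave 106, 102, 169 and 198 on the nonTx arrays and 82.6, 60.3, 62.0 and 50.04 on the Tx arrays, a difference of -1.14 (SE 0.24; limma adjusted p = 0.219). Dock2, which activates Rac during leukocyte migration, differed by -0.79 (SE 0.27; limma adjusted p = 0.318). The third, its partner Elmo1, passed the filter only through nonTx and was well above background on only 1 Tx array. Its signal was 33.3 on Tx array 2 and 9.22 to 16.0 on the others, against 32.7 to 57.6 in nonTx, so its fitted difference is not given. Of the 10 genes that passed in both groups, 2 were lower at an unadjusted p under 0.05 by limma (5.22% of probes that passed in both groups). The G protein subunits Gnai2 and Gnai3, which all these receptors use, differed by 0.00 (SE 0.08) and 0.03 (SE 0.10).

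The inducers of the inflammatory ligands went different ways. Tnf gave 120, 116, 113 and 100.4 on the nonTx arrays and 204, 148, 151 and 192 on the Tx arrays, without overlap, a difference of 0.62 (SE 0.14; limma adjusted p = 0.241). Il1b, also an NF-kB-activating cytokine, gave 336, 504, 600.2 and 456 on the nonTx arrays and 181, 211, 245 and 299 on the Tx arrays, without overlap, a difference of -1.01 (SE 0.20; limma adjusted p = 0.18). Of the 9 measured cytokine and NF-kB pathway genes, 7 were lower and 2 higher, with a median of -0.17. Of all tested genes, 56.3% were higher. The 7 lower genes include Nfkbia and Tnfaip3, which encode inhibitors of NF-kB and are not inducers. In the interferon gamma pathway, 7 of 8 genes were lower, with a median of -0.17. Of these, Ifng passed the filter only through nonTx, and among the 7 genes that passed in both groups 6 were lower and 0 had an unadjusted p under 0.05 by limma. Ifng gave 16.3, 62.8, 12.4 and 16.4 on the nonTx arrays, all well above background, and 7.13, 13.4, 7.93 and 10.3 on the Tx arrays, none of which was. The groups overlapped, and nonTx array 2 stood far above the other nonTx arrays. No fold is given for Ifng, since its fitted difference of -1.19 (SE 0.48; limma adjusted p = 0.356) was -0.67 without that array (limma adjusted p = 0.538).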

How the data were processed

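The data were 8 one-colour arrays, 4 per group, hybridised with Cy3-labelled RNA (0.5 ug per sample, per the labels' protocols). The deposited scanner files hold background-subtracted intensity per spot as Feature Extraction wrote it (version 10.7.1.1 per the file headers, 9.1 in the submitters' processing notes). The authors' deposited table repeats these intensities (largest log2 difference 1.51e-06 over family probes) and adds log2 values scaled and centred by the authors. The flags for well above background come from the deposited scanner files, per the file headers. The log2 intensity minus each array's 75th percentile was computed here, and spots marked as outliers were set to missing (0 in the family). Probes that either group showed well above background on 3 or 4 arrays, with 2 or more values per group, were tested with limma 3.58.1 in R 4.3.3 (data.table, version 1.17.8; lmFit, eBayes with a variance trend) and Benjamini-Hochberg adjustment over all tested probes at a threshold of 0.05. The fit was tested on simulated data.

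A gene is represented by its brightest tested probe. Values per array are given for ligand genes with an unadjusted p under 0.05 or without overlap, the brightest gene of each group, and Cxcl9, Cxcl10, Ccl5, Cxcl12 and Pf4; of other lists, up to 4 genes with the smallest p and the receptors of named ligands. Members and lists were chosen with earlier results of these data known. Sums of marker signals use scaled signal. Marker lists not described beside a ligand gave, for tested genes, a median difference of 0.14 (B cells), -0.18 (dendritic cells), -0.05 (sinusoidal endothelium), 0.12 (stellate cells), -0.26 (cholangiocytes), 0.04 (hepatocytes) and 0.35 (exocrine pancreas). The same-numbered arrays of the groups correlated in their deviations at 0.0464, 0.0806, 0.0986 and -0.0103, so the numbers were not taken as pairs. Alternatives changed the background correction (normexp, offset 50, on the median signal), normalization, filter, floor, variance model, array weights, replicate block, probe choice and array set. Genome coordinates are RefSeq's on GRCm38.p6; array probes were matched by gene only.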

Additional observations from a re-analysis of the deposited data

Results flagged for a closer look

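In 6 of 70 groups of 4 arrays, 1 array stood apart from the other 3 on a tested ligand probe; at 1 in 20, chance gives 3.5. The first nonTx array was the lowest for Cxcl10 (A_55_P2016462; log2 signal over the 75th percentile 1.28, scaled signal 658 against 1170 to 1310) and for Ccl4 (A_51_P509573; -2.74, 40.6 against 50.8 to 51.6). Tx array 2 was the lowest for Ccl25 (A_51_P161265; 0.79, 470.3 against 559 to 579) and for Cxcl13 (-1.55, 92.9 against 134 to 138). Tx array 3 was the lowest for Cxcl11 (A_55_P2044413; 1.61, 830.2 against 2256 to 2666). Tx array 4 was the highest for Ccl27a (A_55_P2068734; 3.57, 3237 against 2437 to 2462).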

How the results depend on the processing

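The number of ligand probes with an adjusted p under 0.05 was 0 under every setting run, array removals included (0 to 0). Ligand probes at an unadjusted p under 0.05 by limma and higher in Tx numbered 7 in the main fit (7.17% of all tested probes were higher at that level). They numbered 3 with quantile normalization (4.72% of all), 3 without a variance trend (5.83%) and 2 to 6 when 1 array was left out (4.42% to 12.3%). With quantile normalization 1 ligand probe was lower at that level, against 0. Over all probes, the number called was 2 with normexp, 1 with the authors' log2 values, 1 without a variance trend, 5 with robust variance, 7 with array weights, 1 with the replicate block and 0 to 188 when 1 array was left out (188 without Tx replicate 2), against 0. The count of all tested probes with unadjusted p under 0.05 was 6135 without a filter and 2909 to 6315 when 1 array was left out (6315 without Tx replicate 1), against 4085. The family median lay between 0.12 and 0.24 and the share of ligand probes higher between 62.9% and 85.7%. The replicate block called 0 ligand probes; 2 of 4 nonTx arrays correlated best with their own number. A block for slide or scan was not run, since 1 slide and 1 scan held all arrays. Of 1315 single-probe values under alternatives, 1261 kept their direction and side of the threshold and 52, over 21 of 70 probes, changed sign: Ccl24 to 0.044, Ccl25 (A_52_P326713) to -0.024, Ccl25 (A_55_P2027852) to -0.068, Ccl7 to -0.028 and Cx3cr1 to 0.12 with array weights; Ccr2 to 0.012 and Cx3cr1 to 0.055 with normexp; Cx3cr1 to 0.011 with quantile normalization; Ccl25 (A_55_P2027852) to -0.008 with median scaling. The rest changed sign when 1 array was left out, with ranges of -0.36 to 0.40 (Ccl12), -0.30 to 0.068 (Ccl19), -0.11 to 0.41 (Ccl21a), -0.25 to 0.16 (Ccl24), -0.07 to 0.18 and -0.094 to 0.13 (Ccl25), -0.098 to 0.07 (Ccl5), -0.26 to 0.17 (Ccl7), -0.039 to 0.21 (Ccr3), -0.14 to 0.19 (Cx3cl1), -0.29 to 0.27 (Cx3cr1), -0.14 to 0.29 and -0.043 to 0.36 (Cxcl10), -0.074 to 0.49 (Cxcl11), -0.041 to 0.001 (Cxcl12, A_55_P1966204), -0.11 to 0.32 (Cxcl13), -0.052 to 0.40 (Cxcl14), -0.19 to 0.042 (Cxcl16, A_51_P374198), -0.096 to 0.35 (Cxcl9) and -0.082 to 0.52 (Cxcr5). The causes were not tested. Probes near background, such as Ccl3, Ccl7 and Ccl12, are limited by signal.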
